A study of Drosophila melanogaster with 103 samples.

Results

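Active distal regulatory elements carry acetylation of lysine 27 on histone H3 (H3K27ac), the mark written by the acetyltransferase CBP, while promoters of transcribed genes also carry trimethylation of lysine 4 (H3K4me3). H3K27ac and the Polycomb mark H3K27me3 sit on the same lysine, so 1 histone tail cannot hold both. The regions described here are the H3K27ac peaks of the Drosophila melanogaster cell lines D17 and S2 that had 0 bp of overlap with the H3K4me3 and H3K27me3 peaks of the same line and lay more than 1 kb from both ends of every protein-coding gene. They are called distal peaks below. There were 4569 of them among 12299 H3K27ac peaks in D17 (37.1%) and 3006 among 10392 in S2 (28.9%), or 7575 in all.

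The series profiled chromatin by immunoprecipitation and sequencing in 103 libraries: D17 and S2 gave 41 each and Kc167 gave 21. D17 (ML-DmD17-c3) is a cultured line of imaginal disc origin, the larval tissue that gives rise to wings, halteres and legs. S2 (S2-DRSC) is an embryonic line with blood cell features, and Kc167 is another embryonic line. Each antibody was used on 2 libraries per line, grown in separate flasks, with 1 input library per line. The labels give no treatment and no engineered genotype for any group, and each line stands for itself and not for a tissue. The deposited values were 1 peak list per antibody and line in build dm6. The lists hold no value per replicate. The spread of the replicates is thus not measured, none of the differences below was tested, and read depth is unknown. Exact 95% binomial (Clopper-Pearson) intervals are given with shares and cover counting error only. Fold enrichments are those of the authors' peak caller and serve to describe and rank peaks within a list.

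As a check of the labels, an H3K27ac peak lay over 10 of 10 blood cell marker genes in S2 and over 7 of 10 in D17. Among 10 imaginal disc markers, D17 had such a peak over 4 (sd, Dll, hth and Ubx) and S2 over 2 (sd and hth). The disc markers vg, nub, dac, wg, dpp and Doc1 had none over the gene in either line. D17 H3K27me3 covered 100% of Dll, 99.9% of Ubx and 88.7% of hth, and S2 H3K27me3 97.9% of hth, while sd had 0% in both. In D17 fewer disc than blood cell markers had an H3K27ac peak, so this check does not show a disc identity of D17. A peak was present over 1 of 5 neural markers in D17 and over 2 of 5 in S2. On the fuller lists used below, the mark lay over 18 of 35 wing, haltere and leg genes in D17 and 8 in S2, and over 9 of 20 blood cell genes in D17 and 12 in S2. The blood cell genes gcm, gcm2, lz, He, Sr-CI, peb, PPO1 and PPO2 had none in either line.

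Among the D17 H3K27ac peaks, 5255 (42.7%) touched H3K4me3 and 242 (1.97%) touched H3K27me3, 4 of them both. A further 2237 touched neither but lay within 1 kb of a gene end, which left the 4569 distal peaks. In S2, 5604 (53.9%) touched H3K4me3, 226 (2.17%) touched H3K27me3, 12 of them both, and 1568 lay near a gene end. Since the rule used these marks, the counts describe the choice of peaks. The gene table gives the outer ends of a gene without its strand or its transcripts, so a peak at an internal start of a long gene could count as distal. The nearest distal peaks lay 1002 bp from a gene end in D17 and 1001 bp in S2, and the nearest peaks left out lay at 1000 bp in both. Within 250 bp inside the limit, 60.5% of 294 D17 peaks and 42.9% of 212 S2 peaks carried H3K4me2. Within 250 bp outside it, 55.5% of 319 and 42.6% of 204 did. Peak numbers are skipped in the H3K4me3 lists at 3.15% of the D17 numbers and 3.06% of the S2 numbers, so H3K4me3 peaks may have been removed, and 279 D17 and 160 S2 distal peaks lay in such stretches.

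Distal peaks were narrow and weak in comparison with promoter-type peaks of the same list. Their median width was 660 bp in D17 and 654 bp in S2, against 1136 and 897 bp for the H3K27ac peaks that touched H3K4me3. A wide peak more easily touches H3K4me3 or comes near a gene end, so the rule itself favours narrow distal peaks. How much of the gap in width this accounts for was not tested. Their median fold was 1.937 in D17 (quartiles 1.676 and 2.538, highest 11.335) and 2.105 in S2 (quartiles 1.707 and 2.996, highest 14.366). The peaks that touched H3K4me3 had a median fold of 3.375 in D17 and 3.256 in S2. A minority was stronger: 364 distal peaks in D17 (7.97%) and 445 in S2 (14.8%) had a fold of 4 or more. These shares were lower than the 17.7% and 22.9% over all H3K27ac peaks.

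Most distal peaks lay inside genes. In D17 3986 of 4569 (87.2%) and in S2 2670 of 3006 (88.8%) overlapped the body of a protein-coding gene, and the median distance to the nearest gene end was 4291 bp and 4107 bp. Beyond 10 kb from any gene end there were 1036 peaks in D17 and 698 in S2. The peaks belonged to long genes: the median body of a gene with a distal peak was 10.695 kb in D17 and 12.051 kb in S2, against 2.161 kb over all 13946 protein-coding genes, which follows in part from the rule, since a body shorter than 2 kb cannot hold a distal peak. They also came in groups. Joined over gaps of up to 5 kb, 1278 D17 peaks (28%) stood in 178 runs of 5 or more, and 767 S2 peaks (25.5%) in 114 such runs, the largest with 18 and 19 peaks. The shares inside genes and in runs are given without the same shares over all H3K27ac peaks. They describe the distal peaks and do not set them apart from other H3K27ac peaks.

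The histone marks over the distal peaks differed from those at promoter-type peaks. H3K4me2, a mark of both promoters and enhancers, lay over 46.8% of the D17 distal peaks (45.4 to 48.3), against 93.2% of the peaks that touched H3K4me3 and a background of 69% over all D17 H3K27ac peaks. In S2 it lay over 35.9% (34.1 to 37.6), against 94.7% and a background of 68.7%. H3K4me2 peaks over distal peaks were themselves weak, with a median fold of 1.968 in D17 and 2.066 in S2 against 5.136 and 4.745 at the promoter-type peaks. Where H3K4me2 was present, the median gap between its summits and the nearest distal H3K27ac summit was 100 bp in D17 and 159 bp in S2. Of these gaps, 67.3% and 56.5% were within 250 bp. At the promoter-type peaks the median gaps were 309 and 314 bp. Those peaks are wider, and narrow peaks that overlap must have near summits. When all lists were cut to their higher-scoring 50%, the share with H3K4me2 was 28.4% in D17 and 7.56% in S2.

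H2AK118ub1, the ubiquitin mark placed by the Polycomb complex PRC1, was the mark that stood higher over distal than over promoter-type peaks in both lines. It lay over 58% of the D17 distal peaks (56.6 to 59.5; background 39.3%) and over 20.2% of the peaks that touched H3K4me3. In S2 it lay over 30.7% (29 to 32.4; background 18.6%) and 7.85%. The H2AK118ub1 list covered 39.632 Mb in D17 and 15.486 Mb in S2, so the values of the lines are not on 1 scale. H3K36me3, deposited along transcribed gene bodies, lay over 41.9% of D17 and 31.8% of S2 distal peaks, with backgrounds of 61.9% and 58.6%.

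**Figure D1:**
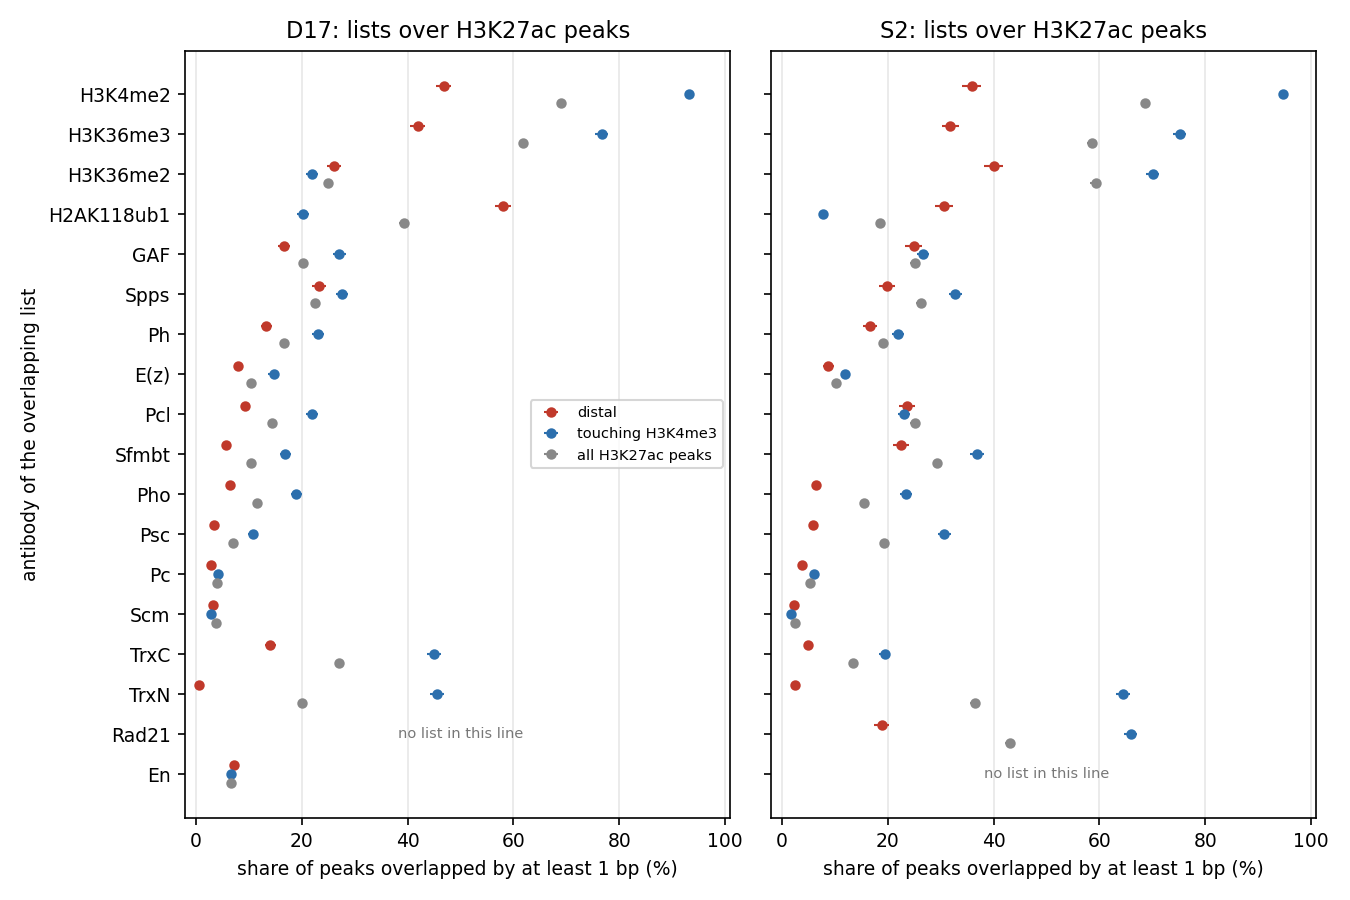
Share of H3K27ac peaks overlapped by at least 1 bp of each peak list of the same line, in percent, for distal peaks, peaks that touched H3K4me3 and all H3K27ac peaks; horizontal bars are exact 95% binomial intervals. In D17 TrxN falls from 45.6% at the peaks that touched H3K4me3 to 0.569% at distal peaks, while H2AK118ub1 goes from 20.2% to 58%.

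Among the DNA-binding factors, GAF (product of Trl), which binds GA repeats and opens chromatin, lay over 762 D17 distal peaks (16.7%, 15.6 to 17.8; background 20.2%) and 748 S2 distal peaks (24.9%, 23.3 to 26.5; background 25.1%). The S2 share is thus near the background and is no result about distal peaks. Spps, a zinc finger protein found at Polycomb response elements, lay over 23.2% in D17 (background 22.6%) and 19.8% in S2 (background 26.2%). Engrailed (En), a homeodomain repressor of posterior compartments profiled in D17, lay over 328 peaks (7.18%, 6.45 to 7.97), near its background of 6.65%. The GAF peaks over distal peaks had a median fold of 8.619 in D17, against 17.766 for the GAF peaks over promoter-type peaks. In S2 these were 11.265 and 14.839.

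Polycomb group proteins were found over a minority of the distal peaks. Ph, a PRC1 subunit, lay over 605 in D17 (13.2%, 12.3 to 14.3; background 16.6%) and 501 in S2 (16.7%, 15.4 to 18; background 19.1%). E(z), the PRC2 enzyme that writes H3K27me3, lay over 368 in D17 (8.05%, 7.28 to 8.88; background 10.5%) and 262 in S2 (8.72%, 7.73 to 9.78; background 10.3%), although by the rule none of these peaks touched H3K27me3. Pc, the PRC1 subunit that reads H3K27me3, lay over 2.91% in D17 (background 3.97%) and 3.76% in S2 (background 5.37%). Pho, the DNA-binding Polycomb protein, lay over 6.50% (background 11.6%) and 6.49% (background 15.6%). Sfmbt, its partner, lay over 5.62% in D17 (background 10.4%) and 22.5% in S2 (background 29.4%). Pcl, a PRC2 accessory protein, lay over 9.32% (background 14.4%) and 23.6% (background 25.2%), from lists of 4065 peaks in D17 and 15159 in S2. When the overlap had to cover over 50% of the H3K27ac peak, E(z) shares were 3.17% in D17 and 2.56% in S2. Ph shares were 6.68% and 7.05%, GAF shares 9.26% and 15.5%, and the En share in D17 2.65%.

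Trithorax (Trx), the methyltransferase that opposes Polycomb repression, was read with antibodies to its N-terminal (TrxN) and C-terminal (TrxC) parts. TrxN lay over 26 distal peaks in D17 (0.569%, 0.372 to 0.833; background 20%) and over 75 in S2 (2.50%, 1.97 to 3.12; background 36.4%). The TrxN list itself coincided with promoter-type peaks: 77.7% of the D17 and 71.2% of the S2 TrxN peaks overlapped an H3K27ac peak that touched H3K4me3, so the rule removed most of its sites. The few TrxN peaks at distal peaks were weak, at the median percentile 17.9 of their list by fold in D17 and 13.3 in S2. Of the distal peaks with TrxN, 15 of 26 in D17 and 49 of 75 in S2 also carried E(z), and 11 and 35 carried Pc. Over all H3K27ac peaks with TrxN, E(z) lay over 11% in D17 and 14.6% in S2, and Pc over 5.12% and 8.32%. TrxC was wider, over 643 D17 distal peaks (14.1%, 13.1 to 15.1; background 27%) and 151 in S2 (5.02%, 4.27 to 5.87; background 13.4%). The TrxC list covered 9.544 Mb in D17 and 1.752 Mb in S2. With overlap over 50% of the peak width, TrxC lay over 1.90% in S2 and TrxN over 0.306% in D17 and 1.33% in S2, and at the higher-scoring 50% of the lists TrxN lay over 0.229% and 0.540%.

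Rad21, a subunit of the cohesin ring, was profiled in S2. It lay over 567 distal peaks (18.9%, 17.5 to 20.3), against 66% of the peaks that touched H3K4me3 and a background of 43.1%. The Rad21 peaks at distal peaks stood at the median percentile 17.1 of their list by fold, those at promoter-type peaks at 61.4. At the higher-scoring 50% of the lists, 6.48% of the distal peaks had it, and with overlap over 50% of the peak width 9.98% did. Of the distal peaks with Rad21, 66.8% carried GAF and 55.4% carried Ph, compared with 15.1% and 7.67% of those without it. Over all S2 H3K27ac peaks these were 37.8% and 33.4% with Rad21, and 15.6% and 8.30% without.

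GAF, Ph, Spps and E(z) often fell on the same distal peaks, at shares near those over all H3K27ac peaks. Of the D17 distal peaks with Ph, 83% carried GAF (79.7 to 85.9) and 86.8% Spps, compared with 6.56% and 13.5% of those without Ph. In S2 these were 88.6% and 88.8% with Ph, and 12.1% and 5.99% without. Over all H3K27ac peaks with Ph, GAF lay over 88.3% and Spps over 85.3% in D17, and over 84.6% and 87.9% in S2. E(z) lay over 49.9% of the D17 and 47.5% of the S2 distal peaks with Ph, and Pc over 11.7% and 16.8%, against 58.1% and 45.4% for E(z) and 10.5% and 14.2% for Pc over all H3K27ac peaks with Ph. In D17, 72.6% of the distal peaks with En carried Ph, compared with 8.65% of those without; over all D17 H3K27ac peaks these were 74.4% and 12.5%. GAF, Ph and Spps stood together on 432 D17 peaks (9.46%; background 12.7%) and 399 S2 peaks (13.3%; background 14.8%). These shares follow peak width too, since wide peaks can touch more lists, and how much of them width accounts for was not tested.

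At the other end, 2669 D17 distal peaks (58.4%; background 43.2%) and 1455 S2 distal peaks (48.4%; background 28.5%) were touched by none of the 13 protein lists of their line. Their median fold was 1.813 in D17 and 1.899 in S2. Peaks under 5 or more protein lists numbered 367 in D17 (8.03%; background 13.6%) and 385 in S2 (12.8%; background 23.7%), with median folds of 3.057 and 3.444. Some 1345 D17 peaks (29.4%; background 16.9%) and 945 S2 peaks (31.4%; background 14.1%) had neither a protein list nor H3K4me2.

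The distal peaks therefore held a wide range of acetylation strength, and the factors varied along it. Each line's distal peaks were split at the quartiles of their fold into 4 classes, and the peaks that touched H3K4me3 were cut at the same folds. From the lowest to the highest class, GAF went from 5.00% to 37.3% in D17 and from 6.52% to 45.7% in S2. Ph went from 3.60% to 32.8% and from 4.79% to 34.2%, and E(z) from 1.84% to 20.1% and from 1.99% to 20.6%. A climb was also seen over all H3K27ac peaks: cut at the same folds, GAF went from 5.51% to 30.6% in D17 and from 8% to 36.9% in S2, Ph from 4.08% to 26.3% and from 4.85% to 31%, and E(z) from 2.35% to 16.6% and from 1.71% to 18.3%. Within 500 bp centred on the H3K27ac summit, a window of equal width chosen after seeing the data, the highest class of distal peaks had E(z) at 14% in D17 and 12% in S2, and Ph at 24.4% and 24.3%. Spps reached 57.6% in the highest D17 class from 4.56% in the lowest (all peaks 35.9% and 4.44%). Rad21 in S2 went from 3.19% to 47.6% (all peaks 5.54% to 67.2%), and En in D17 from 3.51% to 17.4% (all peaks 3.78% to 9.88%). TrxN did not exceed 0.877% in any D17 class or 4.12% in any S2 class. Pcl in S2 fell and then rose again, at 31.1%, 22%, 17.7% and 23.7% from the lowest to the highest class. Over all peaks these were 34.2%, 22.6%, 17.1% and 28.4%. In D17 Pcl went from 3.07% in the lowest class to 21.5% in the highest (all peaks 4.13% to 23.2%).

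In the highest class several factors were more frequent at distal than at promoter-type peaks of the same fold range, and others were less frequent. The lowest class had the opposite order for GAF, at 5.00% of distal against 21.9% of promoter-type peaks in D17 and 6.52% against 18.3% in S2. The promoter-type shares of that class rest on 73 peaks in D17 (13.1 to 33.1) and 180 in S2 (13 to 24.8). The values that follow are for the highest class. GAF was at 37.3% (34.5 to 40.1) against 28.6% (27.3 to 30.1) in D17, and at 45.7% (42.1 to 49.4) against 33.3% (31.6 to 34.9) in S2. Within the 500 bp window GAF stood at 29.1% against 23.9% in D17 and at 39.4% against 27.3% in S2. Spps in D17 was at 57.6% against 30%, and 44.4% against 24.1% in the window. En was at 17.4% against 7.68%, and 11.5% against 4.96% in the window. Spps in S2 had overlapping intervals in both groups, at 43.1% (39.5 to 46.7) and 42.7% (40.9 to 44.4). Rad21 kept the opposite order, at 47.6% against 75.2%. TrxC did too, at 19.9% against 46.9% in D17 and 10.2% against 24.3% in S2. Pho was also lower at distal peaks, at 10.6% against 22.1% in D17 and 14.6% against 30.1% in S2. Psc was at 5.95% against 11.8% in D17 and 11.4% against 38.1% in S2.

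**Figure D2:**
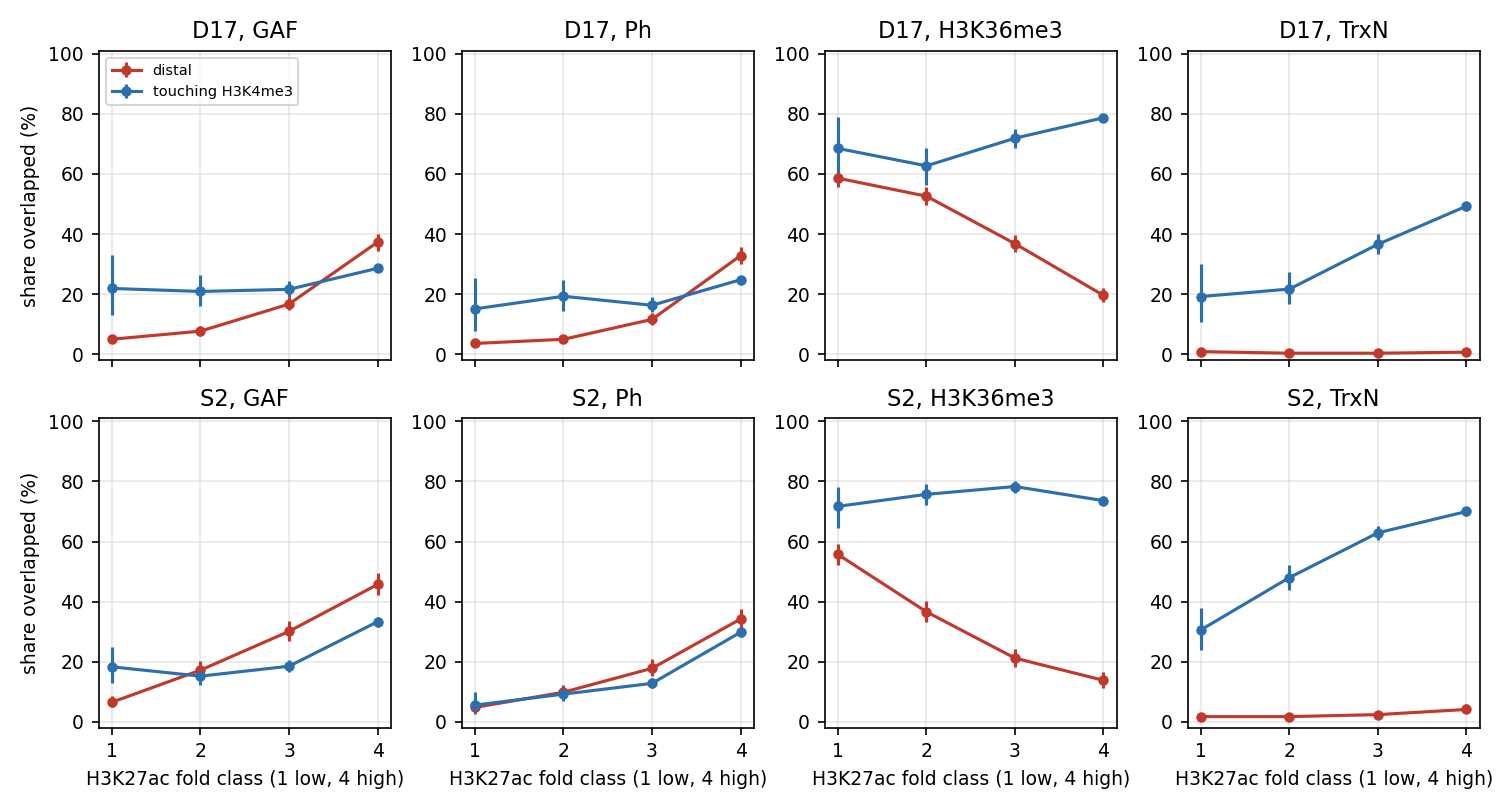
Share of peaks overlapped by GAF, Ph, H3K36me3 and TrxN (vertical axis, percent) in 4 classes of H3K27ac fold, cut at the quartiles of the distal peaks of each line, for distal peaks and for peaks that touched H3K4me3; vertical bars are exact 95% binomial intervals. GAF and Ph climb and H3K36me3 drops with fold at distal peaks, while TrxN stays at or under 4.12%.

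H3K36me3 covered 58.6% of the lowest class in D17 and 55.7% in S2, near the 59.7% and 57.8% of all H3K27ac peaks in that class. In the highest class it covered 19.6% and 13.8%, against 65.4% and 60.1% of all peaks. The 1914 D17 distal peaks with H3K36me3 had a median fold of 1.785, with GAF over 5.02% and Ph over 2.98% of them, and 98.1% were inside a gene. The 2655 without it had a median fold of 2.156, with GAF over 25.1% and Ph over 20.6%. In S2, 957 peaks with the mark had a median fold of 1.750 and GAF over 6.27%, and 2049 without it had 2.353 and 33.6%. Over all H3K27ac peaks GAF lay over 11% with H3K36me3 and 35.1% without in D17, and over 12.3% and 43.3% in S2. H3K4me2 went the other way: it lay over 62.7% of the D17 distal peaks with H3K36me3 and 35.4% of those without, and over 46.1% and 31.1% in S2, against 81.3% and 49.2%, and 83.3% and 48%, over all peaks. H2AK118ub1 in D17 moved with fold, from 50.3% in the lowest class to 68.6% in the highest, while all peaks had 49.7% and 32.4%. In S2 it was 34.4% and 26.9%, and 33.2% and 14.4% over all peaks.

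The next question was how far the distal peaks belong to 1 line. Of the D17 distal peaks, 2680 (58.7%, 57.2 to 60.1) had 0 bp under S2 H3K27ac, compared with 36.7% of all D17 H3K27ac peaks. Of the S2 distal peaks, 1217 (40.5%, 38.7 to 42.3) had 0 bp under D17 H3K27ac, compared with 22.4% of all S2 peaks. The peaks that touched H3K4me3 were mostly shared, 92.1% in D17 and 91.9% in S2. The D17 list is longer, and with H3K27ac lists of equal length the shares without a counterpart were 51.8% and 45.1%, so the gap between the lines was narrower.

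Shared distal peaks were usually distal in both lines. In S2, 1505 of the D17 distal peaks (32.9%) met a distal peak, 278 (6.08%) met an H3K27ac peak that touched H3K4me3, 78 met one near a gene end and 28 met one that touched H3K27me3. In D17, 1482 of the S2 distal peaks (49.3%) met a distal peak and 188 (6.25%) met an H3K27ac peak with H3K4me3. Stronger peaks were shared more often: S2 H3K27ac lay over 21.5% of the lowest fold class in D17 and over 64.7% of the highest, and D17 H3K27ac over 55.2% and 71% of those classes in S2. Over all H3K27ac peaks these shares were 22.6% and 87.7%, and 57.2% and 89.3%. Kc167 H3K27ac lay over 31.7% of the D17 distal peaks (background 58%) and over 47.9% of those of S2 (background 72.8%). H3K27ac was in neither of the other lines at 2339 D17 distal peaks (51.2%) and 785 S2 distal peaks (26.1%). No background is given for these counts, so they describe the distal peaks alone.

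Where a D17 distal peak had no H3K27ac in S2, the Polycomb mark was there in a part of cases, at a lower share than over all D17 H3K27ac peaks of that kind. S2 H3K27me3 touched 402 of these 2680 peaks (15%, 13.7 to 16.4; background 18.3% over all 4508 D17 H3K27ac peaks without S2 H3K27ac) and covered 350 of them over their whole width, compared with 1.85% of the D17 distal peaks that kept H3K27ac in S2. In the opposite direction, D17 H3K27me3 touched 48 of the 1217 S2 distal peaks without D17 H3K27ac (3.94%, 2.92 to 5.20; background 6.23% over the 2329 S2 peaks without it), 45 of them over the whole width. The S2 H3K27me3 list covered 26.250 Mb and that of D17 17.560 Mb. Since H3K27me3 of the own line was excluded by the rule and that of the other line was not, these shares bear on the other line alone. At the higher-scoring 50% of the lists they were 8.91% and 1.97%.

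Most sites acetylated in 1 line had no H3K27me3 in the other, and several factors, though not all, were less frequent there than at shared sites. In what follows the background is over all H3K27ac peaks that lack the mark in the other line. No S2 list touched 779 of the D17 distal peaks without S2 H3K27ac (29.1%; background 22.3%), and S2 GAF lay over 5.26% (background 7.54%), Ph over 3.36% (4.75%), H3K4me2 over 7.13% (12%) and Rad21 over 1.53% (3.37%). Where S2 H3K27ac was present these were 26.6%, 18.2%, 49.3% and 26.1%. Over all D17 H3K27ac peaks with S2 H3K27ac they were 26.5%, 21.2%, 78.2% and 51.6%. S2 Pcl differed little, at 25.1% without S2 H3K27ac and 26.6% with it. Of the S2 distal peaks without D17 H3K27ac, D17 GAF lay over 11.3% (background 14%), H3K4me2 over 13.6% (21.5%), H2AK118ub1 over 44.2% (39.5%) and TrxC over 25.1% (26.5%), with no D17 list over 204 (16.8%; background 14.9%). Where D17 H3K27ac was present, D17 GAF lay over 27.3%, H3K4me2 over 56.3%, H2AK118ub1 over 53.7% and TrxC over 20.9%, so TrxC had the opposite order. Over all S2 H3K27ac peaks with D17 H3K27ac these were 23.8%, 81.5%, 27.9% and 36%. Over all peaks H2AK118ub1 was thus lower and TrxC higher where D17 H3K27ac was present, the reverse of the distal peaks. In their own line, too, the distal peaks without a counterpart held less GAF. It was at 11.3% in D17 against 24.3% of the shared distal peaks, and at 20.4% against 27.9% in S2. Over all H3K27ac peaks these were 12.6% and 24.6% in D17, and 23.3% and 25.7% in S2.

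**Figure D3:**
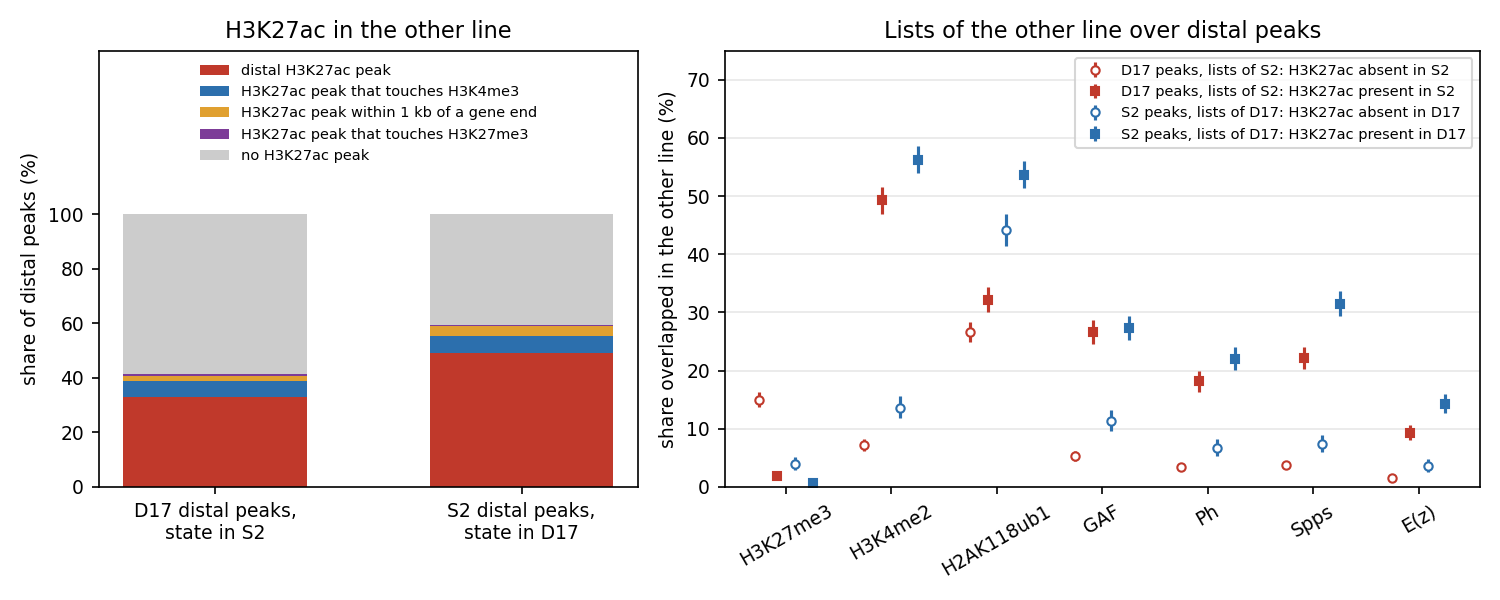
Left, the H3K27ac state of the other line at the distal peaks of D17 and S2, as stacked shares in percent. Right, the share of distal peaks touched by lists of the other line (percent, with exact 95% binomial intervals), by whether the other line had H3K27ac there; S2 H3K27me3 touched 15% of the D17 peaks without S2 H3K27ac and 1.85% of those with it.

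The distal peaks fell on few genes. A peak was given to each protein-coding gene whose body it overlapped and otherwise to the nearest gene. In this way 1827 genes had a distal peak in D17 (13.1%) and 1336 in S2 (9.58%), and 946 had one in both (51.8% of the D17 and 70.8% of the S2 genes). At least 10 peaks were found at 68 genes in D17 and 35 in S2. The genes named next were chosen by their counts, their folds or their difference between the lines, so those values are descriptions.

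In D17 the gene with the most was sbb, which encodes the corepressor Scribbler, with 24 distal peaks in a body of 79.1 kb (2R, 18278198 to 18357296). Their folds ran from 1.829 to 5.930 with a median of 2.670. H2AK118ub1 lay over all 24, Spps over 17, Ph over 12 and En over 11, and 13 had no S2 H3K27ac. In S2 sbb had 11 distal peaks, with a highest fold of 9.918. The Tousled-like kinase gene Tlk (X, 3720007 to 3789770) had 21 distal peaks in D17, 16 with GAF and 14 with Ph, and 12 in S2, 8 with GAF and 7 with Ph. In D17 Ph was thus more frequent at the peaks of both genes than its 13.2% over all distal peaks.

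The EGFR effector pnt, an ETS transcription factor gene (3R, 23290231 to 23346167), had 21 distal peaks in D17 and 7 in S2. Their median width was 672 bp in D17 and 3504 bp in S2, so the counts do not give the acetylated length. All 21 D17 peaks lay under D17 TrxC and all 21 overlapped S2 H3K27ac of some class, while 2 of the 7 S2 peaks lay under S2 TrxC. The TrxC list covered 9.544 Mb in D17 and 1.752 Mb in S2. The Notch-cleaving metalloprotease gene kuz had 21 in D17, with folds from 1.541 to 10.286, and 11 in S2, from 1.562 to 9.560. Of the D17 peaks of kuz, 13 had no S2 H3K27ac, whereas all 11 S2 peaks had D17 H3K27ac. CG42238 had 21 in D17, 17 of them without S2 H3K27ac and none with Ph, and 7 in S2. The homeobox gene ct had 20 and 15, and the teneurin gene Ten-m 19 and 15.

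In S2 the gene with the most was bun, which encodes a TSC22-family transcription regulator, with 30 distal peaks in 91.1 kb (2L, 12455540 to 12546611) against 18 in D17. Of the 30, 18 had no D17 H3K27ac, 13 carried Sfmbt, 8 GAF and 8 Rad21. The gene CG42663 had 20 in S2 and 7 in D17, and mtgo had 18 and 9. The nuclear envelope protein gene klar had 15 distal peaks in S2, 12 of them without D17 H3K27ac, and 3 in D17. The corepressor gene Smr had 16 in each line, and 1 of its S2 peaks and 2 of its D17 peaks lacked a counterpart. The GATA cofactor gene ush had 14 in S2 and 16 in D17, and all 14 S2 peaks overlapped D17 H3K27ac.

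**Figure D4:**
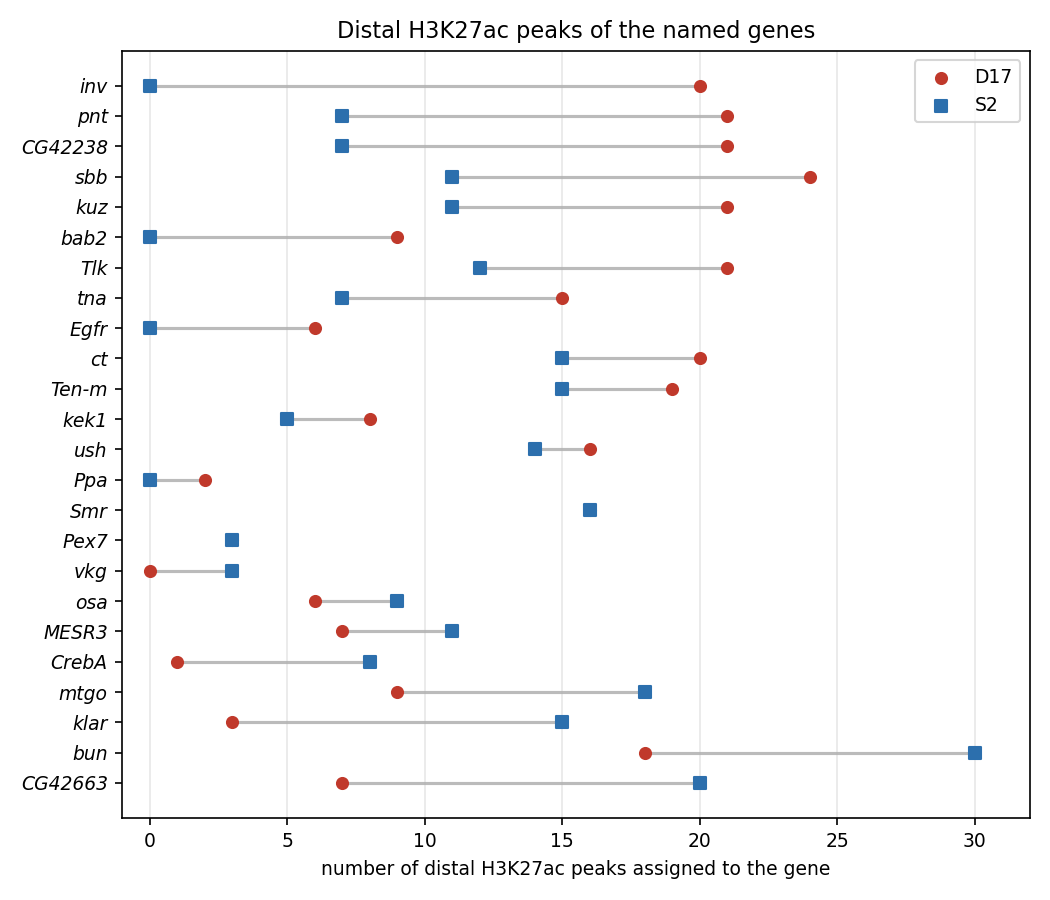
Number of distal H3K27ac peaks (horizontal axis) given to each of 24 named genes in D17 (circles) and S2 (squares); a line joins the values of a gene, and equal values hide the circle. The gene inv has 20 in D17 and 0 in S2, and bun has 18 and 30.

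The strongest single peak in D17, with a fold of 11.335, lay 1182 bp beyond an end of kek1, which encodes an inhibitor of EGFR (2L, 12823969 to 12825115). Spps was the only protein list over it in D17, and the S2 H3K27ac peak there had a fold of 12.793. The next, of fold 10.396 (2R, 22678860 to 22681201), was nearest to the F-box protein gene Ppa and carried GAF (fold 77.986), Ph (19.596), E(z) (6.838), Pho, Scm, Spps, En and TrxC. In S2 this site had no H3K27ac peak and lay under H3K27me3, with GAF, Ph, Pc, Pcl, Pho, Sfmbt, Spps and Rad21 present. At tna, a gene that interacts with the Brahma remodelling complex, a peak of fold 9.283 (3L, 10852361 to 10857516) carried 10 protein lists in D17, with GAF at a fold of 63.384 and Ph at 18.452, and S2 had H3K27ac there with a fold of 6.306.

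In S2 the strongest peak, with a fold of 14.366, lay in MESR3 (2L, 18630587 to 18632959), a modifier of Ras signalling, and carried Rad21 and Sfmbt but not GAF or Ph. The D17 H3K27ac peak there had a fold of 4.641. The second, with a fold of 13.895, lay in CrebA, a regulator of secretory capacity (3L, 15538187 to 15541574), with Rad21, Sfmbt and Spps. D17 had no H3K27ac there, although it had GAF, Pcl and H2AK118ub1. CrebA had 8 distal peaks in S2, 7 without D17 H3K27ac, and 1 in D17. A peak of fold 13.399 near the peroxisomal import gene Pex7 and a peak of fold 12.864 in osa, which encodes a subunit of the Brahma complex, both met D17 H3K27ac, with folds of 5.743 and 7.921. The first was given to Pex7 only as the nearest gene, at 9211 bp. S2 H3K27me3 covered 100% of the Pex7 body, and a link between the peak and Pex7 was not tested.

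Some distal peaks were touched by nearly every list of their line. In the insulin receptor gene InR (3R, 21578780 to 21585011) an S2 peak of 6232 bp and fold 7.313 was touched by 17 of the 20 S2 lists, H3K27ac itself counted, with TrxN, TrxC, Pc and Rad21 among them. In wts, the kinase of the Hippo pathway, a D17 peak of 3995 bp and fold 7.371 (3R, 30790890 to 30794884) was touched by 15 of 20 D17 lists. CG4496 held a D17 peak of 1403 bp (2L, 7187371 to 7188773) under 15 lists, with a GAF fold of 60.158 and a Ph fold of 18.053, and the S2 H3K27ac peak over it had a fold of 6.699. Spn, which encodes spinophilin, held an S2 peak under 16 lists with a fold of 12.265.

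Among 8 gene lists, that of wing, haltere and leg development gave the widest gap between the lines. Long genes have more room for distal peaks, and no count below is adjusted for length. Of 35 such genes, 16 had a distal peak in D17 with 86 peaks, and 5 had one in S2 with 12 peaks. Over all protein-coding genes these shares were 13.1% and 9.58%, and the median body of the list was 15.6 kb. The homeodomain gene inv, the paralogue of en (2R, 11474465 to 11509695), had 20 distal peaks in D17 with folds from 1.536 to 5.095 and none in S2. All 20 had no S2 H3K27ac and all 20 lay wholly under S2 H3K27me3, which covered 100% of the gene. In D17 no H3K27me3 lay over inv, and H2AK118ub1 lay over 19 of the 20 peaks, Spps over 9, GAF over 5, Ph over 5 and En over 3. The T-box gene bi, required in the wing, had 19 in D17, 18 of them wholly under S2 H3K27me3, with Spps over 13, Ph over 11 and Sfmbt over 10. It had 2 in S2.

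The BTB genes bab1 and bab2, which pattern the leg, had 8 and 9 distal peaks in D17, of which 4 and 8 had no S2 H3K27ac and 4 and 8 lay wholly under S2 H3K27me3. Neither gene had GAF or Ph over any of these peaks. In S2 bab1 had 2 and bab2 none. H3K27ac peaks of any class over the gene numbered 8 in D17 and 9 in S2 for bab1, and 6 and 1 for bab2. S2 H3K27me3 covered 78.7% of the bab1 body, and the rule leaves out peaks that touch H3K27me3 of the same line. The Hedgehog receptor gene ptc had 10 in D17, 6 with GAF, and 5 in S2, each of which met D17 H3K27ac. The selector genes vg, nub, dac and Lim1 had none in either line and were covered by H3K27me3 over 100% of their bodies in both. Among 23 homeotic and segmentation genes, 3 had a distal peak in D17 (hry, Dfd and Scr) and 1 in S2 (hry). All of these peaks lay outside the gene body, 13 near hry in D17 and 9 in S2, and 11 of the 13 carried TrxC in D17 while none of the 9 did in S2. The TrxC list covered 9.544 Mb in D17 and 1.752 Mb in S2, so these counts are not on 1 scale.

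**Figure D5:**
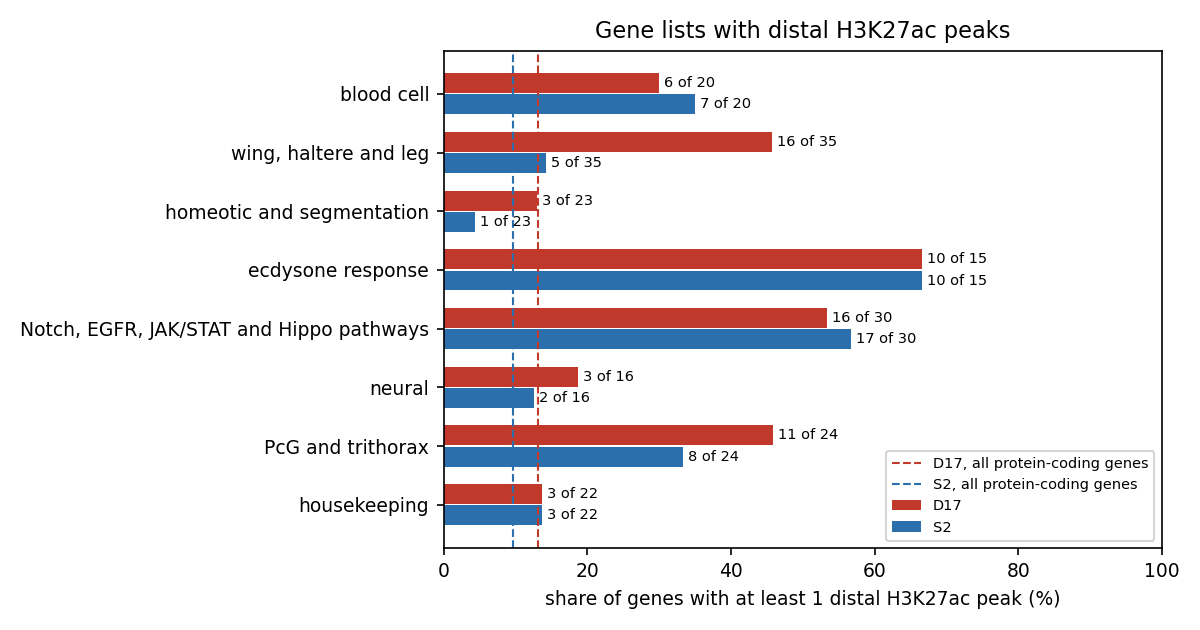
Share of the genes of 8 lists with at least 1 distal H3K27ac peak (percent, bars from 0, with the number of genes written beside each bar) in D17 and S2; dashed lines give the share over all protein-coding genes, 13.1% in D17 and 9.58% in S2. The wing, haltere and leg list has 16 of 35 genes in D17 and 5 of 35 in S2.

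Ecdysone response genes, which answer the steroid hormone of moulting, had distal peaks in both lines, 10 of 15 in each, with 76 peaks in D17 and 56 in S2. They are long genes, with a median body of 50.7 kb. The receptor gene EcR had 16 in D17, 13 of them without S2 H3K27ac, and 7 in S2, all 7 with Rad21 and 6 with GAF. Eip74EF had 9 and 11, with GAF over 7 and 9 of them and Ph over 7 and 8. The nuclear receptor gene ftz-f1 had 5 in each line and GAF over all 5 in each. The BTB factor gene br had 8 in D17, all without S2 H3K27ac, and 3 in S2, all 3 with D17 H3K27ac. Eip75B had 10 in each line, and 8 of its S2 and 4 of its D17 peaks had no counterpart.

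Of 20 blood cell genes, 6 had a distal peak in D17 and 7 in S2, with 31 and 34 peaks. The GATA factor gene srp, the master regulator of blood cells, had 4 in S2 and 1 in D17, none with GAF or Ph. The peroxidasin gene Pxn had 5 in S2, each without D17 H3K27ac, with a highest fold of 7.936, and 1 in D17. The collagen IV gene vkg had 3 in S2 with folds of 1.592, 2.418 and 5.688 and none in D17. The receptor gene Pvr had more in D17, 7 against 3, but its S2 peaks were stronger within their list, up to 11.202 against 3.448 in D17. They were also wider, with a median of 3143 bp in S2 against 977 bp in D17. The repressor gene zfh1 had 4 in S2 and 5 in D17.

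In the Notch, EGFR, JAK/STAT and Hippo pathways 16 of 30 genes had a distal peak in D17 and 17 in S2, with 94 and 56 peaks. The receptor gene Egfr had 6 in D17, with folds up to 2.382, and none in S2, where H3K27me3 covered 100% of the gene and lay over each of the 6 sites. The Hippo regulator kibra had 8 in D17, 7 of them under TrxC, and 4 in S2 with folds up to 9.681. The kibra peaks were wider in S2, with a median of 3023 bp against 939.5 bp in D17. The ETS repressor gene aop had 8 and 5. The transcription factor of the JAK/STAT pathway, Stat92E, had 4 in D17, all under TrxC, and 3 in S2. The ligand gene Delta had no distal peak in either line.

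Of 24 Polycomb and trithorax genes, 11 had a distal peak in D17 and 8 in S2. The zinc finger gene jing had 10 in D17, 6 of them wholly under S2 H3K27me3, and 1 in S2. Psc, which encodes a PRC1 subunit, had 4 in D17 and 1 in S2. The trx gene had 3 in D17, with folds of at most 2.296, and none in S2. Trl, which encodes GAF, had 3 and 2, with GAF over 2 and 1 of them. Of 16 neural genes, 3 had a distal peak in D17 and 2 in S2, and of 22 housekeeping genes 3 had one in each line, although an H3K27ac peak of any class lay over 21 and 20 of the latter.

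The widest D17 distal peaks that lay wholly under S2 H3K27me3 were 7379 bp near Syx7 (3L, 21450515 to 21457893), 6046 bp in bi (X, 4437113 to 4443158) and 5490 bp in CG42342 (3R, 16538673 to 16544162). Their folds were 3.253, 3.408 and 4.121. At the CG42342 site S2 also had Ph, Pho, Pcl and Spps, and at the bi site H3K27me3 was the only S2 list. The widest S2 distal peaks under D17 H3K27me3 were narrower, 3587 bp in ec, 2243 bp in sqa and 2228 bp near RFeSP. The last of these (2L, 1628465 to 1630692; fold 3.206) carried GAF, Ph, E(z), Pc, Psc, Pho and Rad21 in S2, and TrxC besides H3K27me3 in D17.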

How the data were processed

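Per the submitters' processing notes, the tools named are Trim Galore 0.6.4, Bowtie2 2.3.5.1, SAMtools 1.13, bedtools 2.29.2 and MACS2 2.2.6, with genome build BDGP6 (dm6). How the 2 replicates and the input entered a list is not given in the sources used here. The deposited lists give each peak a score, a fold enrichment (a ratio over background), a −log10 q-value and a summit position; in the 42 lists used, all 183187 scores were, within 1, the deposited −log10 q-value times 10. Scores served to select peaks, and folds to describe or rank them. The fold threshold of the H3K27ac lists was 1.5.

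Distal peaks were selected by interval overlap of at least 1 bp and by distance to the outer ends of 13946 protein-coding genes of the RefSeq table (Release 6 plus ISO1 MT), in which all 185 list genes were matched. Exact 95% binomial intervals were computed. The members and gene lists were chosen with earlier results of these data known. Named were the 8 genes per line with the most distal peaks, the genes of the 5 peaks of highest fold per line, list genes with at least 3 distal peaks in one line and 0 in the other, and per line the 3 peaks under the most lists and the 3 widest wholly under H3K27me3 of the other line; other genes of the lists were named after their values were seen. No test was possible, since no list has replicate values. Alternatives were overlap over 50% of the peak width, 2 kb, the higher-scoring 50% of each list, no H3K4me3 within 1 kb, equal list lengths, skipped peak numbers, gene bodies alone and, chosen after seeing the data, 500 bp around the summit. On simulated data 200 of 200 planted distal peaks were found and 800 of 800 peaks put in the right class; 40 of 40 overlap counts equalled those of bedtools 2.31.1. Python 3.11.15, NumPy 2.4.6, pandas 2.3.3, SciPy 1.17.1 and matplotlib 3.10.9 were used. Genome sequence, and the other Kc167 lists, were not used here.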

Additional observations from a re-analysis of the deposited data

How the results depend on the processing

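Of 178 values under alternatives, 102 stayed within their interval or, for counts, within 1.5 times, and 76 moved. A single share has no direction; of the order between lines, E(z) was lower in D17 than in S2 as reported (8.05% and 8.72%) and higher with overlap over 50% and with equal list lengths (10.1% and 8.72%), and the median fold was higher in D17 with equal list lengths (2.16 and 2.105). Leaving out stretches at skipped peak numbers moved none. No paired analysis was possible because the lists carry no replicate values and the results come from no test. Depth, and with it the share of weak distal peaks that went undetected, is unknown.

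With overlap over 50% of the peak width, fewer narrow protein peaks can count. In D17 the shares were 64% without S2 H3K27ac, 35.2% with H3K4me2, 9.26% with GAF, 6.68% with Ph, 3.17% with E(z), 0.306% with TrxN, 11.8% with TrxC and 2.65% with En, and 13.4% of the D17-only peaks lay under S2 H3K27me3. In S2 they were 46.3% without D17 H3K27ac, 26.1% with H3K4me2, 15.5% with GAF, 7.05% with Ph, 2.56% with E(z), 1.33% with TrxN, 1.90% with TrxC and 9.98% with Rad21.

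With the higher-scoring 50% of each list, which shortens the lists, there were 1310 distal peaks in D17 and 926 in S2, with median folds of 3.199 and 3.902. D17 shares were 28.4% for H3K4me2, 19.9% for GAF, 15.6% for Ph, 0.229% for TrxN, 11.9% for TrxC and 11.4% for En, and 8.91% of the D17-only peaks lay under S2 H3K27me3. S2 shares were 49.4% without D17 H3K27ac, 7.56% for H3K4me2, 27.9% for GAF, 21.2% for Ph, 9.83% for E(z), 0.540% for TrxN, 4.21% for TrxC and 6.48% for Rad21, and 1.97% of the S2-only peaks lay under D17 H3K27me3.

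With lists of equal length, 51.8% of D17 and 45.1% of S2 distal peaks had no counterpart; the D17 median fold was 2.160, and the D17 shares were 20.2% for GAF, 16.4% for Ph, 10.1% for E(z), 15.3% for TrxC and 8.56% for En.

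Over 2 kb from gene ends, the median folds were 1.984 in D17 and 2.160 in S2. H3K4me2 shares were 43.3% and 33.3%, GAF 18% and 27.1%, Ph 14.4% and 18.4%, E(z) in D17 8.89% and Rad21 in S2 21.5%, and 42.4% of S2 peaks had no D17 H3K27ac. In S2, 4 Polycomb and trithorax genes and 1 housekeeping gene kept a distal peak. With no H3K4me3 within 1 kb, 60.8% of D17 peaks had no S2 H3K27ac and H3K4me2 shares were 43.5% and 30.1%. With peaks inside gene bodies alone, 0 homeotic and segmentation genes remained in either line, and 3 wing, haltere and leg genes in S2.

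Within 500 bp around the summit, D17 shares were 43.9% for H3K4me2, 14% for GAF, 10.9% for Ph, 6.17% for E(z) and 5.43% for En, and S2 shares were 33% for H3K4me2, 22.4% for GAF, 13.6% for Ph, 6.45% for E(z), 1.86% for TrxN, 3.86% for TrxC and 16.7% for Rad21. Beyond what the construction of an alternative shows, the cause was not tested.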

Other observations

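Kc167 H3K27me3 touched 676 of the 4569 D17 distal peaks (14.8%, 13.8 to 15.9) and 281 of the 3006 S2 distal peaks (9.35%, 8.33 to 10.4), compared with 10.1% and 6.31% of all H3K27ac peaks of those lines. Among the 3121 D17 distal peaks without Kc167 H3K27ac it touched 640 (20.5%, 19.1 to 22), and among the 1566 such S2 peaks 249 (15.9%, 14.1 to 17.8). Over all H3K27ac peaks without Kc167 H3K27ac these shares were 22.3% and 20.3%.

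Ends of long noncoding or antisense RNA genes lay within 1 kb of 291 D17 distal peaks (6.37%) and 222 S2 distal peaks (7.39%). Among H3K27ac peaks that touched H3K4me3 these shares were 11.2% and 10.4%. Distal peaks were few on chromosome 4, with 2 in D17 and 3 in S2, or 11.8% and 10.3% of the H3K27ac peaks there. On X they were 820 in D17 (38.2%) and 592 in S2 (31.5%).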
